A study of Mus musculus with 80 samples.

Results

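Firre and Frmd7 are X-linked genes, 2 of 22556 genes (908 of them on the X) that were measured in chromatin-associated RNA of mouse embryonic stem (ES) cells in 80 libraries. Both were picked by name for a strong fall of their RNA after loss of the protein ZCCHC8. The ZCCHC8 values below are therefore a description, and tests within a line were run on the other lines. Some tests over clones include the ZCCHC8 clones without dTAG, and this is stated where it applies. The cells come from a cross of the Cast and 129S strains, grew on inactivated fibroblast feeders, and have 1 X whose own Xist gene is switched on by doxycycline (Dox). This X is called Xi once Xist is induced, and the other X is called Xa. In all lines a protein carries the FKBP12F36V tag, so that the small molecule dTAG leads to its loss. The tagged proteins were METTL3 (clones G4 and H1 with the tag at the N terminus, C3 and H5 at the C terminus), ZFC3H1 (clones 8H and 11A), YTHDC1 (Y9F and Y12H, each in 2 experiments) and ZCCHC8 (Z4F and Z12H). Inducible Xist lies on the Cast X in the METTL3 and ZFC3H1 clones and on the 129S X in the YTHDC1 and ZCCHC8 clones, where its Xist also carries an element labelled Bgl. METTL3 clone H5 was also the parent of the transgene lines, which add GFP-METTL3 at Rosa26, wild type (WT) or D395A, a change of the catalytic site. Each is a single clone in 2 experiments, as XX cells or as cells labelled XiO, which were handled as having the Cast X with inducible Xist alone. Libraries were made from untreated cells, from cells given dTAG alone (26 h) or Dox alone (24 h), and from cells given dTAG 2 h ahead of 24 h in Dox with dTAG kept on (dTAG + Dox).

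Firre encodes a long noncoding RNA that stays in the nucleus and binds the matrix protein HNRNPU through a repeated sequence element. Its locus is also a landmark of the inactive X, where it binds CTCF and cohesin and is held in long-range contact with the Dxz4 repeat. Frmd7 encodes a cytoplasmic FERM domain protein of neurons and the retina, known from an inherited form of nystagmus, the involuntary movement of the eyes. ZCCHC8 is a subunit of NEXT, which hands short-lived nuclear transcripts to the exosome for decay. ZFC3H1 belongs to PAXT, which does so for polyadenylated transcripts, METTL3 deposits the m6A mark on RNA, and YTHDC1 is a nuclear reader of that mark.

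In the deposited tables (GRCm38, starts counted from 1) Firre spans X 50555744 to 50635258 and Frmd7 X 50892645 to 50942710, both on the minus strand. A gap of 257 kb lies between them and holds 2610018G03Rik (Stk26), a kinase gene on the plus strand at X 50841436 to 50891850, so the pair are neighbors without being adjacent. Counts cover the whole transcript span, 79.5 kb for Firre and 50.1 kb for Frmd7, introns included. The promoters are shown because both transcripts fell after loss of ZCCHC8 and went opposite ways after loss of YTHDC1 (below). Each run is 300 bases of RefSeq sequence on GRCm38.p6, minus strand, from 250 bases before to 50 bases after the start that RefSeq annotates, and capitals mark a match to a searched motif. RefSeq places the starts at X 50635321 and 50942769, which is 63 and 59 bases upstream of the ends of the deposited spans, so both runs lie wholly outside the regions in which reads were counted.
Firre promoter, chrX:50635272-50635571: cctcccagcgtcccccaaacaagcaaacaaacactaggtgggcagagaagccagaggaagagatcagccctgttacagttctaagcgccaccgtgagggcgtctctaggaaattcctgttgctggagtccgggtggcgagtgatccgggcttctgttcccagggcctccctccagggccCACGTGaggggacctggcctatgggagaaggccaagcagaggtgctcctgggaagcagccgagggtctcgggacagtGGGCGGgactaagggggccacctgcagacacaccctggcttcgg
Frmd7 promoter, chrX:50942720-50943019: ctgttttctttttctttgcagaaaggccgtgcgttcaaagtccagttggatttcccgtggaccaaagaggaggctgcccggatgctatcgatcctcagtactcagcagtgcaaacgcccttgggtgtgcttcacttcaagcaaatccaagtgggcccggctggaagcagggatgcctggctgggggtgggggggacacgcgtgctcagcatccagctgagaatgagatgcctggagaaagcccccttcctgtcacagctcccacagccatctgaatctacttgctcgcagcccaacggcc
The Firre promoter held the E box CACGTG 71 bases before the RefSeq start and the GC box GGGCGG 6 bases after it, and its GC content was 62.7%. The Frmd7 promoter, at 57.3% GC, held none of the motifs searched on both strands, which were the TATA box TATAAA, the CCAAT box, the GC box, the E box and the YY1 motif GCCATNTT. Over 32851 promoters of the same length the median GC content was 52.7%, and 13.6% held the TATA box, 37.4% the CCAAT box, 35.7% the GC box, 7.15% the E box and 6.05% the YY1 motif. Within the Firre span 6.19% of 81-base windows, the length of a read, occurred more than once (up to 5 copies) against 0 of 49986 windows in Frmd7. Reads from these Firre repeats may align to several places, and unique alignments alone were counted.

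Libraries held 8.58 to 34.4 M reads (median 22.5, M for megareads). Xist checked the Dox labels, with 1.22 to 738 CPM (a gene's reads per M reads of its library) in the 40 libraries without Dox and 1383 to 8948 CPM in the 40 with it. The RNA of the tagged protein's own gene passed the test with dTAG in none of the degron lines, which act on the protein. Of 9 stem cell markers 8 had reads, with a sum of 928 to 2395 CPM per library. Sox2 was listed at 0 in all 80, and the reason was not tested, so this value is not read as absence of the transcript. The sum over 9 fibroblast markers was 383 to 2194 CPM, nearly all of it Fn1, and the other 8 summed to 0.714 to 12.3 CPM. Markers of germ layers summed to 7.02 to 94.8 CPM, of which T reached 82.4 CPM in the WT XiO line, whose stem cell sum was the lowest (928 to 1185 CPM). In the D395A XX line the stem cell sum was 1446 to 1536 CPM with dTAG and 1888 to 1939 CPM untreated. In METTL3 libraries genes under 3 kb took 0.497 to 4.57% of reads, against 0.522 to 2.46% elsewhere. What part these differences have in the results was not tested. In bulk samples fewer cells that make a transcript and less of it per cell cannot be told apart.

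Firre was abundant and Frmd7 scarce in every library. Firre ranged from 50.5 to 1128 CPM (median 473), from 1035 to 24856 reads, and Frmd7 from 1.16 to 40.7 CPM (median 8.86), from 23 to 997 reads. Per kb of span, the median level was 5.95 CPM for Firre and 0.177 CPM for Frmd7, and Firre exceeded Frmd7 by 2.20- to 202-fold (median 31.9-fold). Values of Frmd7 therefore carry more counting error.

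In untreated cells the 6 highest line means of Firre lay close together, from 781 to 855 CPM. In descending order they were 855 ± 93.5 CPM (SD) in D395A XX, 841 ± 5.10 in YTHDC1 experiment 1, 816 ± 237 in METTL3 (n = 4), 802 ± 83.5 in ZCCHC8, 798 ± 108 in YTHDC1 experiment 2 and 781 ± 119 in WT XX (n = 2 where not given). Neighbors in this order differed by less than the larger of their SDs. ZFC3H1 (575 ± 57.9), WT XiO (503 ± 89.8) and D395A XiO (411 ± 73.0) followed, and each overlapped the next in its single values. For Frmd7 the untreated means ran from 17.9 ± 3.47 CPM in METTL3 and 17.3 ± 9.86 in D395A XX, through 14.1 ± 0.384 in WT XX, 11.9 ± 6.02 in D395A XiO, 10.5 ± 6.23 in WT XiO, 9.96 ± 1.72 in YTHDC1 experiment 2 and 9.63 ± 6.45 in ZFC3H1, to 7.34 ± 0.724 in ZCCHC8 and 6.21 ± 0.508 in YTHDC1 experiment 1. Experiments of the same YTHDC1 clones did not overlap for Frmd7 and overlapped for Firre. Tables were scaled separately by the authors, so levels were not tested across them.

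**Figure D1:**
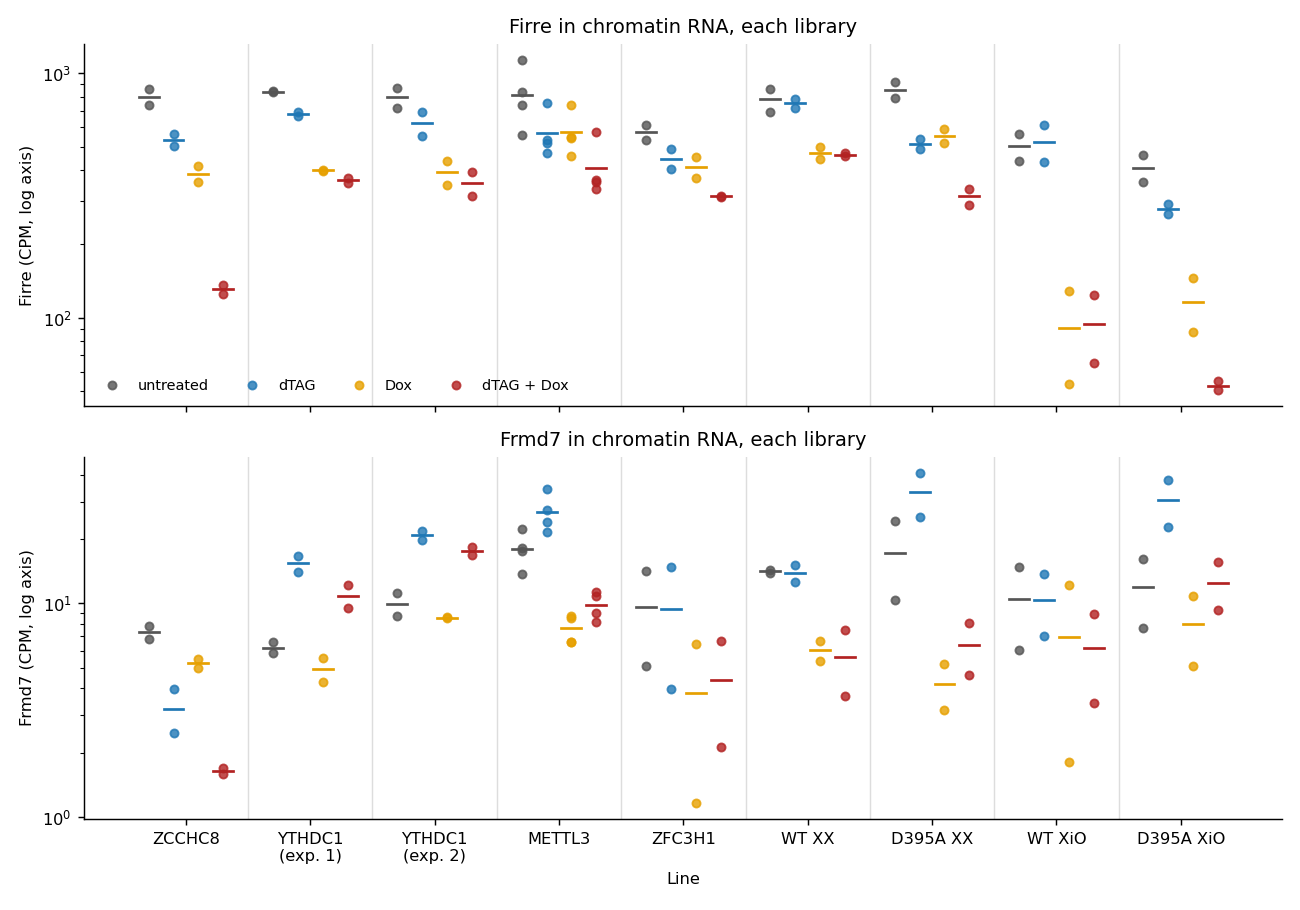
CPM of Firre (top) and Frmd7 (bottom) in every library on log axes, by line and treatment, with bars at the group means. Firre was lowest in the Dox-treated XiO lines and in ZCCHC8 cells with dTAG + Dox (125 and 136 CPM), and the highest libraries of Frmd7 were those with dTAG of D395A XX (40.7 CPM), D395A XiO (38.1) and METTL3 clone C3 (34.2).

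After loss of ZCCHC8 both transcripts were lower, and Firre was far lower when Xist was induced as well. In Z4F and Z12H, Firre stood at 861 and 743 CPM untreated, 564 and 506 with dTAG, 418 and 359 with Dox, and 136 and 125 with dTAG + Dox. With dTAG, 65.5% and 68.1% of the untreated Firre level remained, and with dTAG + Dox 32.6% and 34.8% of the level with Dox. Frmd7 stood at 6.83 and 7.85 CPM untreated, 2.46 and 3.97 with dTAG, 5.00 and 5.49 with Dox, and 1.58 and 1.69 with dTAG + Dox. With dTAG, 36.1% and 50.6% of its untreated level remained, and with dTAG + Dox 31.6% and 30.8% of its level with Dox. For both genes no treatment group overlapped its own control. The fitted log2 changes, on the log2(CPM + 1) scale that is used for all changes below, were -1.56 with dTAG + Dox against Dox and -0.58 with dTAG against untreated for Firre, and -1.24 and -1.005 for Frmd7. Adding 1 CPM shrinks the changes of scarce transcripts such as Frmd7, and the ranks that follow rest on these changes. In the contrast with Dox the change of Firre was the lowest of 13857 genes and 2 genes lay below Frmd7, Firre being 1 of them. Without Dox 76 genes lay below Firre and 1 below Frmd7. By limma with Benjamini-Hochberg adjustment (adjusted p under 0.05, the rule for all calls), 40.4% of genes changed with Dox and 36.1% without, and these contrasts chose the pair. Xist rose in the same libraries, from a mean of 96.2 to 721 CPM without Dox and from 2944 to 7915 CPM with it, and its part in the values of either gene was not tested.

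After loss of YTHDC1, Frmd7 rose to 195 to 254% of its control level in each clone while Firre was 76.97 to 92.8% of it. In experiment 1, Frmd7 went from 6.57 to 16.7 CPM in Y9F and from 5.85 to 14.1 in Y12H with dTAG, and with Dox present from 5.55 to 12.2 and from 4.28 to 9.49. In experiment 2, it went from 8.75 to 19.9 CPM in Y9F and from 11.2 to 21.9 in Y12H, and with Dox from 8.64 to 16.9 and from 8.53 to 18.4. All 8 libraries with dTAG lay above all 8 without it within their experiment. Log2 changes of Frmd7 by limma were 1.18 (SE 0.13, adjusted p = 1.17e-05) without Dox and 1.00 (SE 0.13, adjusted p = 6.67e-05) with Dox in experiment 1, where 19% and 15.5% of 13857 genes were called. In experiment 2 limma gave 1.01 (SE 0.11, adjusted p = 2.77e-06) and 0.96 (SE 0.11, adjusted p = 6.23e-06), with 17.8% and 14.7% of 13722 genes called. Experiment 1 shares a table and a fitted spread with ZCCHC8, and the ZCCHC8 and YTHDC1 clones share no control library.

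Firre in the same libraries went the other way. With dTAG it went from 838 to 671 CPM in Y9F and from 845 to 692 in Y12H in experiment 1, and from 721 to 555 and from 874 to 696 in experiment 2. With Dox present it went from 398 to 356 and from 402 to 373 CPM in experiment 1, and from 349.9 to 316 and from 436 to 393 in experiment 2. Every clone was lower with dTAG, and groups overlapped with Dox in experiment 2 alone. The fall without Dox passed the test in both experiments, at -0.30 (SE 0.05, adjusted p = 0.000235 by limma) and -0.35 (SE 0.06, adjusted p = 0.000216). With Dox the changes were -0.13 (adjusted p = 0.0541 by limma, 95% limits -0.23 and -0.04) and -0.15 (adjusted p = 0.0832, limits -0.27 and -0.03). The difference of the dTAG effect with and without Dox was 0.17 (95% limits 0.03 and 0.30) and 0.20 (limits 0.04 and 0.37). It did not pass over all genes by limma (adjusted p = 0.999 in both). In experiment 1 the call without Dox was lost when Y9F was left out (adjusted p = 0.0526 by limma), and the call with Dox was gained by edgeR on recovered reads (adjusted p = 0.0345).

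After loss of METTL3, Firre fell in all 4 clones both with and without Dox. Untreated, it stood at 739, 560.4, 1128 and 836 CPM in G4, H1, C3 and H5, and with dTAG at 519, 473, 754 and 533. With Dox it stood at 546, 458, 741 and 544 CPM, and with dTAG + Dox at 364, 359, 573 and 335. Clone C3 was the highest in each treatment, so groups overlapped across clones although each clone was lower than its own control. By limma with clone as a block, the log2 change was -0.50 without Dox (SE 0.09, adjusted p = 0.00378) and -0.50 with Dox (SE 0.09, adjusted p = 0.00959), where 23.3% and 10.5% of 13367 genes were called. The call with Dox was lost without G4 (adjusted p = 0.0870 by limma) or H5 (adjusted p = 0.1155). Over all genes the median log2 change was 0.21 without and 0.23 with Dox, and scaling by median ratios over autosomal genes, which moves that median by -0.235 and -0.249, put Firre at -0.76 and -0.78.

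Frmd7 stood at 17.5, 22.3, 18.2 and 13.8 CPM in untreated G4, H1, C3 and H5, and at 21.5, 27.4, 34.2 and 23.9 with dTAG. With Dox it stood at 6.61, 6.62, 8.59 and 8.77 CPM, and with dTAG + Dox at 10.8, 11.3, 8.22 and 9.05. All 4 clones were higher with dTAG without Dox, and 3 of 4 with Dox. Limma gave 0.55 without Dox (SE 0.18, adjusted p = 0.0423) and 0.33 with Dox (SE 0.18, adjusted p = 0.220). The call without Dox was lost with median-ratio scaling (0.30, adjusted p = 0.323 by limma), which put the value with Dox at 0.07, and when any 1 of the 4 clones was left out. Without Dox the direction was the same in all 4 clones and in these alternatives, but the call was not stable. Of 8 stem cell markers tested, Klf4 alone was called without and with Dox, at 1.52 and 1.33 on the log2 scale (adjusted p = 0.000405 and 0.00445 by limma). Over all genes 23.3% and 10.5% were called. The median change of the 8 markers was 0.27 and 0.28, against 0.21 and 0.23 over all genes, and the part of Klf4 was not tested.

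After loss of ZFC3H1, Firre was moderately lower and Frmd7 gave no call. Firre went from 534 to 406 CPM in 8H and from 616 to 488 in 11A with dTAG, and with Dox from 374 to 313 and from 456 to 316. Groups with and without dTAG did not overlap in either contrast. By limma the log2 change was -0.39 with Dox (SE 0.08, adjusted p = 0.0343), where 3.15% of 13544 genes were called, and -0.37 without Dox (SE 0.08, adjusted p = 0.0533), where 2.15% were. The first call was lost without the filter on low values (adjusted p = 0.0963 by limma) and by edgeR (0.0545). Frmd7 differed more between clones than between treatments, with 5.07 and 14.2 CPM in untreated 8H and 11A, 3.95 and 14.9 with dTAG, 1.16 and 6.44 with Dox, and 2.12 and 6.68 with dTAG + Dox. Its changes were 0.29 with Dox (95% limits -0.09 and 0.67, adjusted p = 0.434 by limma) and -0.11 without (limits -0.50 and 0.27, adjusted p = 0.790).

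The transgene lines ask whether METTL3 from Rosa26 restores the control state when the tagged METTL3 is lost. With WT METTL3, Firre in experiments 1 and 2 was 866 and 697 CPM untreated, 782 and 724 with dTAG, 500.2 and 446 with Dox, and 457 and 473 with dTAG + Dox. With D395A it was 921 and 789 CPM untreated, 537 and 489.8 with dTAG, 518 and 591 with Dox, and 290.1 and 337 with dTAG + Dox. In the D395A line groups with and without dTAG did not overlap, and in the WT line they did. Firre fell in D395A by -0.73 without Dox (SE 0.13, adjusted p = 0.00945 by limma) and -0.82 with Dox (SE 0.13, adjusted p = 0.00851), where 6.01% and 3.19% of 13364 genes were called. In the WT line the changes were -0.05 (95% limits -0.33 and 0.24) and -0.02 (limits -0.31 and 0.26). The difference between the D395A and WT effects, -0.69 without Dox and -0.80 with it, did not pass over all genes without a block (adjusted p = 0.206 and 0.201 by limma, limits -1.09 and -0.28, and -1.20 and -0.40). Cells of an experiment were split from 1 batch over the treatments, and with experiment as a replicate block both differences passed (adjusted p = 0.00378 and 0.00184 by limma), where 16.3% and 12.1% of genes were called.

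Frmd7 in the XX lines spread widely between experiments. With WT METTL3 it was 14.4 and 13.9 CPM untreated, 15.1 and 12.6 with dTAG, 6.68 and 5.36 with Dox, and 7.51 and 3.68 with dTAG + Dox. With D395A it was 10.3 and 24.3 CPM untreated, 25.5 and 40.7 with dTAG, 3.17 and 5.22 with Dox, and 4.598 and 8.13 with dTAG + Dox. It was higher with dTAG in both D395A experiments, by 0.97 without Dox (SE 0.41, adjusted p = 0.197 by limma) and 0.49 with Dox (SE 0.41, adjusted p = 0.649), and neither passed without a block. With the replicate block both passed (adjusted p = 0.000426 and 0.0433 by limma), where 37.5% and 29.3% of genes were called, so calls were frequent in these contrasts. The D395A minus WT difference of Frmd7 without Dox, 1.00, passed with the block as well (adjusted p = 0.0112 by limma). In the WT line the values were -0.03 (95% limits -0.93 and 0.87) and -0.15 (limits -1.05 and 0.75).

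In the XiO lines the error was wider. With WT METTL3, Firre was 566 and 439 CPM untreated, 612 and 434 with dTAG, 128 and 53.4 with Dox, and 123 and 65.4 with dTAG + Dox. With D395A it was 463 and 359.7 CPM untreated, 293 and 264 with dTAG, 145 and 87.0 with Dox, and 54.9 and 50.5 with dTAG + Dox. D395A values with dTAG did not overlap their controls, yet the changes of -0.55 and -1.08 did not pass without a block (SE 0.41, adjusted p = 0.725 and 0.362 by limma). They passed with the replicate block (adjusted p = 0.0285 and 0.000866 by limma), where 34.4% and 31.1% of genes were called. The D395A minus WT difference of Firre with Dox, -1.19, then passed too (adjusted p = 0.0130 by limma, 9.3% of genes called). Frmd7 with WT METTL3 was 14.9 and 6.05 CPM untreated, 13.8 and 7.001 with dTAG, 12.2 and 1.80 with Dox, and 8.94 and 3.43 with dTAG + Dox. With D395A it was 16.2 and 7.66 CPM untreated, 38.1 and 22.8 with dTAG, 10.9 and 5.07 with Dox, and 15.7 and 9.34 with dTAG + Dox. Only the D395A pair without Dox was separate from its control, at 1.32 (SE 0.74, adjusted p = 0.563 by limma). With the replicate block this change passed (adjusted p = 0.00108 by limma), as did its difference from WT of 1.28 (adjusted p = 0.0226, 14.1% of genes called). Across all lines, 18 of 20 clones and experiments had lower Firre with dTAG in each contrast, and 15 of 20 had higher Frmd7. These counts are a description. They include the ZCCHC8 clones, whose falls chose the genes, and count YTHDC1 and transgene clones once per experiment. They also pool the loss of different proteins with the WT transgene lines.

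**Figure D2:**
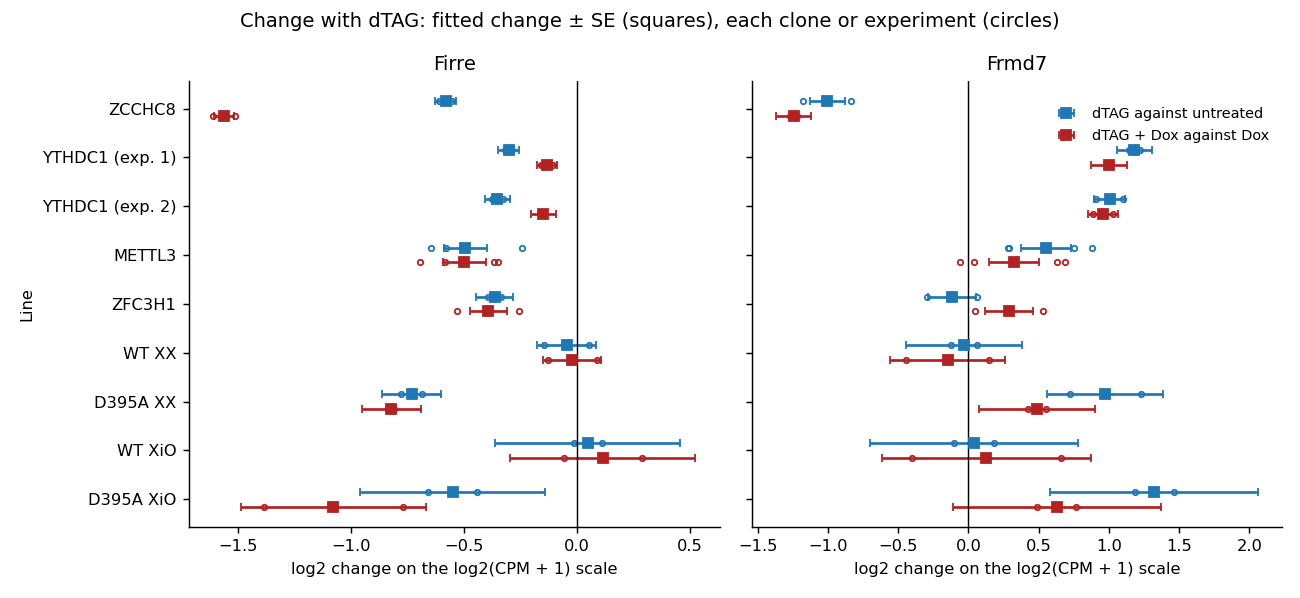
Log2 change with dTAG of Firre (left) and Frmd7 (right) in each line, with squares for the fitted change, bars for its SE and circles for single clones or experiments. Firre lies at -0.13 or lower except in the WT transgene lines (-0.05 to 0.11), and Frmd7 lies below 0 in ZCCHC8 (-1.005 and -1.24) and above it in YTHDC1 (0.96 to 1.18).

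Firre was lower with Dox in 20 of 20 clones and experiments, and the loss was on the X that carries the inducible Xist. By limma the change was -1.07 in YTHDC1 experiment 1 (adjusted p = 2.13e-10) and -1.02 in experiment 2 (adjusted p = 3.71e-10), where 12.6% and 10% of genes were called, and -0.47 in ZFC3H1 (adjusted p = 0.0273), where 1.11% were. In METTL3 it was -0.49 (adjusted p = 0.0371 by limma), where 0.778% were called, and that call was lost when any 1 of the 4 clones was left out. In WT XiO it was -2.57 (SE 0.41, adjusted p = 0.0103 by limma), where 1.17% were called. The changes of -0.62 in D395A XX (adjusted p = 0.0867), -0.72 in WT XX (0.188) and -1.85 in D395A XiO (0.109) did not pass by limma without a block. With the replicate block all 3 passed (adjusted p = 0.000687, 0.000514 and 2.6e-05 by limma), where 5.86%, 3.18% and 7.8% of genes were called. In ZCCHC8 the value was -1.04, as a description. The median change over all tested X genes was -0.41 in METTL3 and -0.54 in YTHDC1 experiment 1.

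The share of allelic reads from the inducible X (Xi share) was known in 64 libraries for Firre. In METTL3 clones G4, H1, C3 and H5 it was 30.3, 31.9, 34.0 and 31.3% untreated, 27.9, 27.8, 32.1 and 32.6% with dTAG, 5.86, 5.76, 6.23 and 6.88% with Dox, and 4.79, 3.63, 4.12 and 4.06% with dTAG + Dox. In ZFC3H1 clones 8H and 11A it was 36.8 and 37.8% untreated, 37.8 and 33.2% with dTAG, 7.71 and 11.1% with Dox, and 9.53 and 8.95% with dTAG + Dox. Groups with and without Dox were far apart in these lines. In YTHDC1 experiment 1 (Y9F, Y12H) it was 64.4 and 64.0% untreated, 64.5 and 63.9% with dTAG, 19.7 and 17.9% with Dox, and 21.9 and 21.3% with dTAG + Dox. In experiment 2 it was 62.4 and 62.7% untreated, 61.8 and 63.1% with dTAG, 16.5 and 22.9% with Dox, and 20.7 and 25.5% with dTAG + Dox. In ZCCHC8 (Z4F, Z12H) it was 62.3 and 64.5% untreated, 58.8 and 58.2% with dTAG, 18.8 and 21.9% with Dox, and 17.5 and 20.0% with dTAG + Dox. Dox moved the share in both directions of strain, since Xi is the Cast X in the first pair of lines and the 129S X in the others. In WT XX (experiments 1 and 2) it was 37.1 and 40.9% untreated, 37.4 and 39.9% with dTAG, 11.0 and 9.49% with Dox, and 9.50 and 9.09% with dTAG + Dox. In D395A XX it was 39.5 and 38.5% untreated, 40.8 and 41.9% with dTAG, 6.16 and 6.98% with Dox, and 5.42 and 5.23% with dTAG + Dox.

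By limma on the fraction, Dox lowered the Xi share of Firre in every line tested. The change was -25.7 percentage points in METTL3 (adjusted p = 5.52e-09), -45.5 and -42.8 in the YTHDC1 experiments (7.84e-08 and 0.000231), -27.9 in ZFC3H1 (0.0032), -28.8 in WT XX (1.45e-07) and -32.4 in D395A XX (3.41e-08). Most X genes with a ratio did the same, with 90.2% called in METTL3, 93.5% and 89.6% in the YTHDC1 experiments, 55.9% in ZFC3H1, 88.3% in WT XX and 92.7% in D395A XX. The size for Firre was larger than for most of them. With Dox, 16.8 to 32.1% of its untreated Xi share was left over the 7 lines and experiments, while the median X gene kept 40.4 to 57.2%, and between 1.02% (METTL3) and 14.9% (ZCCHC8) of X genes kept less than Firre. No change of the Firre share with dTAG passed by limma in the lines tested, with the widest 95% limits in ZFC3H1 (-9.33 and 5.73 points without Dox). On the log odds scale the METTL3 share with Dox did fall with dTAG (-0.42, adjusted p = 0.000795 by limma). In ZCCHC8 the share was 4.88 points lower with dTAG alone and 1.61 points lower with dTAG + Dox, as a description.

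**Figure D3:**
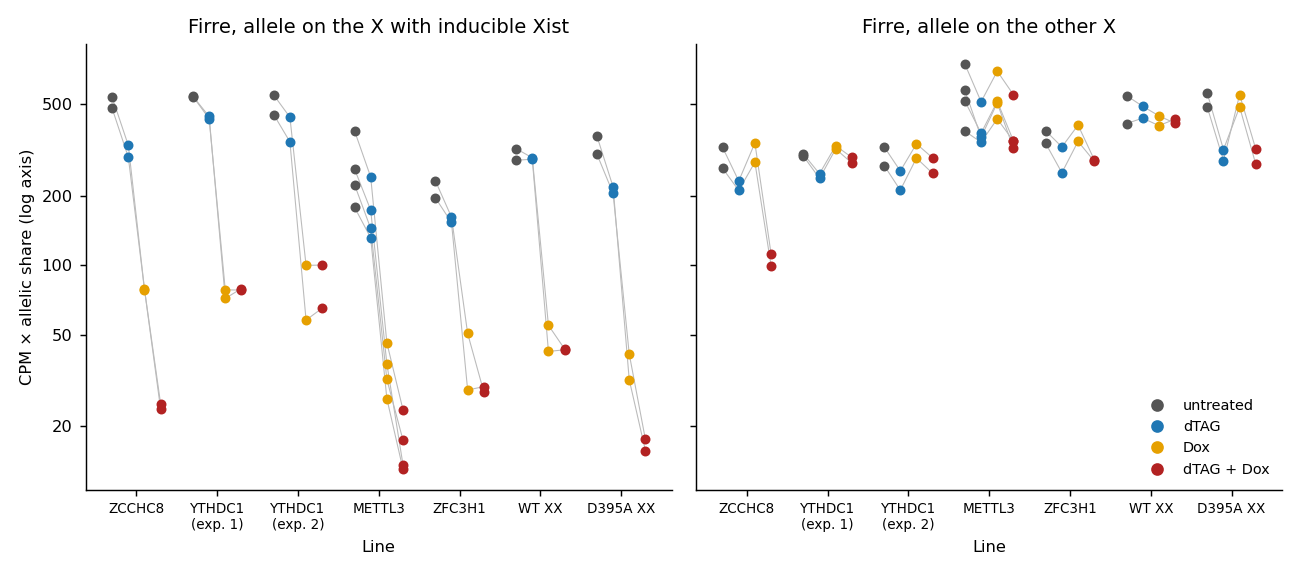
Firre CPM multiplied by the allelic share, for the X with inducible Xist (left) and the other X (right), in each library on a shared log axis, with lines joining a clone or experiment. Dox lowers the left values and not the right ones, and dTAG + Dox in ZCCHC8 gives the lowest values on the right (about 106 CPM).

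Multiplying CPM by the share gives a level for each allele, and these were compared over the 8 degron clones other than ZCCHC8, with experiments of a clone averaged. With Dox the Xi level of Firre changed by a mean of -2.74 on the log2 scale (8 of 8 clones lower, exact two-sided sign-flip p = 0.00781, the smallest that 8 clones allow), and the Xa level by 0.02 (range -0.18 to 0.18, exact p = 0.539). With dTAG alone both alleles were lower in 8 of 8 clones, by -0.48 on Xi and -0.39 on Xa (exact sign-flip p = 0.00781 each). With dTAG + Dox against Dox the Xa level was lower in 8 of 8 clones (-0.38, exact sign-flip p = 0.00781) and the Xi level in 5 of 8 (-0.62, exact p = 0.0625). The Xi results differed by line, with dTAG + Dox at 0.364 to 0.545 of the Dox level in METTL3 and 0.997 to 1.13 in YTHDC1. In ZFC3H1 it was 1.03 in 8H and 0.558 in 11A. The dTAG tests pool clones that lose different proteins, so they measure the effect of no single loss. These 6 tests belong to 1 family and were added after the data were seen. In ZCCHC8 cells the mean Xa level was 294 CPM untreated and 222 with dTAG, and 309.7 CPM with Dox and 106 after dTAG + Dox, and the Xi level 507, 313, 78.6 and 24.4 CPM. There the ratio of the dTAG + Dox level to the Dox level was 0.331 and 0.356 for the Xa allele and 0.303 and 0.318 for the Xi allele, so both alleles of Firre were lower.

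Before Dox, Firre leaned to 129S in all clones. The Cast share was 34.9 ± 2.80% over 10 degron clones (SD, range 30.3 to 37.8%), below 50% in 10 of 10 (exact two-sided sign-flip p = 0.00195), and 30.3 to 40.9% in the 16 untreated libraries of all XX lines. By the study's account all clones derive from 1 ES cell line, so this p-value measures the spread between its clones. The ZCCHC8 clones are among the 10, and their untreated libraries are controls of a contrast that chose the pair. The Cast share of Firre did not differ detectably with the X that carries inducible Xist. Clones with inducible Xist on Cast had 33.7 ± 3.07% (n = 6) and those with it on 129S 36.6 ± 0.912% (n = 4), a difference of -2.94 points (exact permutation p = 0.119 over 210 arrangements, two-sided). In the libraries with dTAG the same difference was -7.20 points with ZCCHC8, where the Xi share was lower with dTAG, as a description. Without ZCCHC8 it was -4.78 points (exact permutation p = 0.143 over 28 arrangements), which did not pass. Among X genes with a ratio, 5.32 to 30.9% had a lower untreated Cast share than Firre. The median X gene had an untreated Cast share of 45.8% in METTL3 and in ZFC3H1, so 50% is not the typical level there. In the YTHDC1 and ZCCHC8 lines its untreated 129S share was 50.6 to 50.7%.

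**Figure D4:**
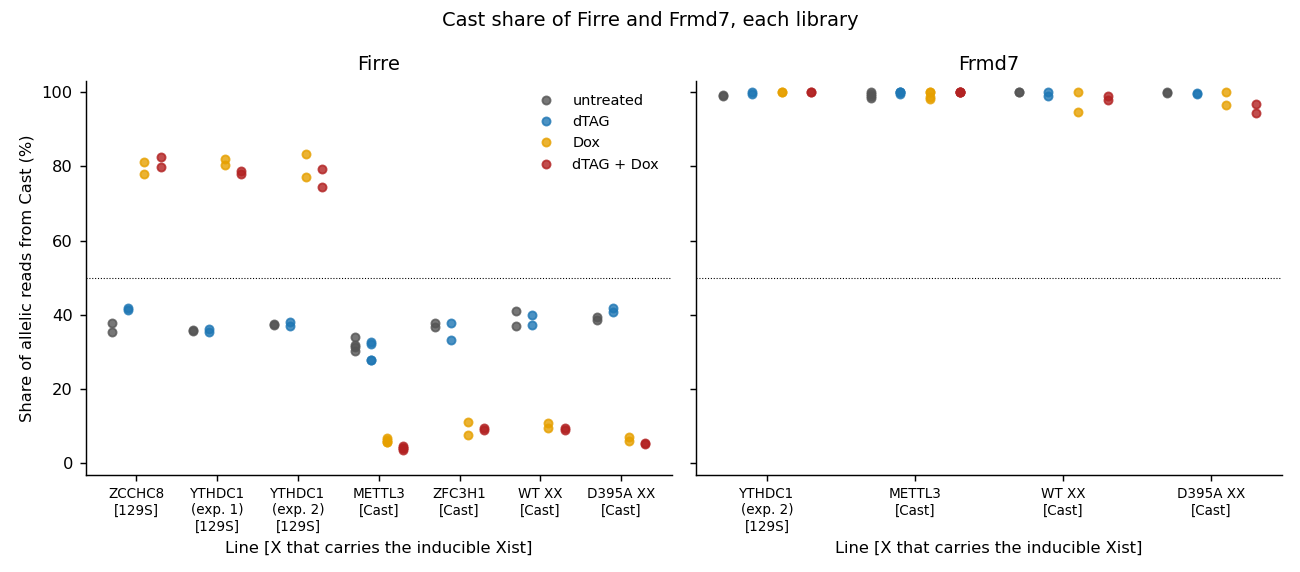
Share of allelic reads from the Cast X for Firre (left) and Frmd7 (right) in each library, with the X that carries inducible Xist in brackets and a dotted line at 50%. Firre sits at 30.3 to 40.9% untreated and moves up or down with Dox by line, and Frmd7 stays at 94.3 to 100% throughout.

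Frmd7 RNA came almost wholly from the Cast X. Its ratio was listed in 3 of 5 ratio tables, covering 40 libraries, and its Cast share ranged from 94.3 to 100% (median 100%), with 21 libraries at 100%. In METTL3 clones G4, H1, C3 and H5 it was 99.1, 100, 99.5 and 98.4% untreated, 99.5% in H5 and 100% in the others with dTAG, 98.0, 100, 98.6 and 100% with Dox, and 100% in all with dTAG + Dox. In WT XX it was 100 and 100% untreated, 98.9 and 100% with dTAG, 100 and 94.7% with Dox, and 99.1 and 98.0% with dTAG + Dox. In D395A XX it was 100 and 99.7% untreated, 99.6 and 99.8% with dTAG, 96.7 and 100% with Dox, and 94.3 and 96.9% with dTAG + Dox. Both strains of inducible X gave this picture, since in YTHDC1 experiment 2, where Cast is Xa, the Xi share was 0.926 and 0.758% untreated, 0 and 0.370% with dTAG, and 0 in the 4 libraries with Dox. The depth behind each ratio is unknown beyond the minimum of 10 variant reads. No change of this ratio passed by limma (adjusted p of 0.212 to 1). Few X genes were so one-sided: of 279 to 410 genes in these tables, 2 each had a Cast share over 95% in untreated cells, Frmd7 and 1 more. On the other side, 4 genes in METTL3 had a 129S share over 95%, and 3 each in YTHDC1 experiment 2 and the XX transgene lines.

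Dox also lowered Frmd7, most where the inducible Xist lies on Cast. By limma the change was -1.12 in METTL3 (SE 0.18, adjusted p = 0.0141) and -1.26 in ZFC3H1 (SE 0.17, adjusted p = 0.00817), and it was -0.29 and -0.19 in the YTHDC1 experiments (adjusted p = 0.147 and 0.343). The METTL3 call was lost without G4 (adjusted p = 0.284 by limma), H1 (0.182) or H5 (0.0810), and the ZFC3H1 call without the filter on low values (0.0717). In the transgene lines the changes were -1.73 in D395A XX (adjusted p = 0.163 by limma), -1.12 in WT XX, -0.80 in WT XiO and -0.52 in D395A XiO, and none of these passed without a block. With the replicate block the first 3 passed (adjusted p = 1.3e-05, 0.00142 and 0.0416 by limma), the last of them where 12% of genes were called. In ZCCHC8 the value was -0.42. All 20 clones and experiments were lower with Dox. Compared over clones, Frmd7 changed by -1.17 (range -1.61 to -0.60, n = 6) with inducible Xist on Cast and by -0.33 (range -0.45 to -0.11, n = 4) with it on 129S, a difference of -0.84 (exact two-sided permutation p = 0.0143 over 210 arrangements). Firre showed the opposite order, -0.48 (range -0.62 to -0.29) and -1.04 (range -1.06 to -1.03), a difference of 0.56 (exact permutation p = 0.00476). Without ZCCHC8 both differences kept their sign (exact p = 0.0357 each, the smallest that 28 arrangements allow), and with the transgene XX clones added exact p was 0.00202 for both. These 2 comparisons were added after the data were seen. Their 129S clones include ZCCHC8, whose untreated and Dox libraries are controls of the contrasts that chose the pair. The X that carries the inducible Xist, the Bgl element and the tagged protein differ together between these clones and cannot be told apart.

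**Figure D5:**
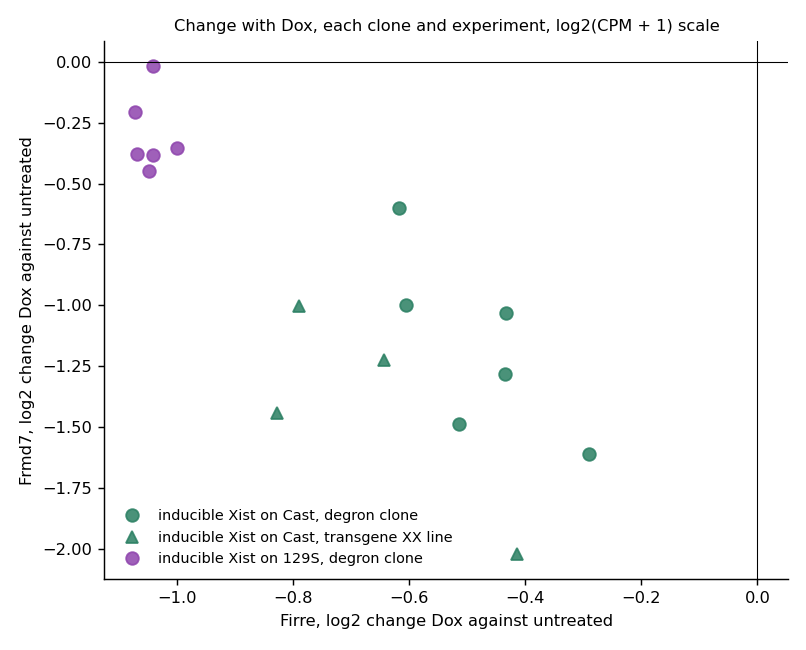
Log2 change with Dox of Firre (x axis) and Frmd7 (y axis), on the log2(CPM + 1) scale, for each XX clone and experiment, colored by the X that carries the inducible Xist. Clones with it on 129S sit near -1.04 for Firre and above -0.45 for Frmd7, and those with it on Cast lie to the right of them and lower.

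Outside ZCCHC8, neighbors of the pair gave 0 to 3 calls among 6 tested genes with dTAG. Of 11 other genes within 1 Mb, 5 olfactory receptor genes were at or near 0 CPM, and these 6 were tested: Igsf1, 2610018G03Rik (Stk26), Rap2c, Mbnl3, Hs6st2 and Usp26. With dTAG + Dox against Dox, 0 of 6 were higher and 1 lower in METTL3, 3 higher and 0 lower in each YTHDC1 experiment, and 0 were called in ZFC3H1 and D395A XX. Over all genes 10.5% were called in METTL3, 15.5% and 14.7% in the YTHDC1 experiments, and 3.15% and 3.19% in ZFC3H1 and D395A XX, so 1 of 6 in METTL3 and 0 of 6 in the last pair are near the share over all genes, and 3 of 6 in YTHDC1 rests on few genes. The called genes in YTHDC1 were Mbnl3 (a splicing regulator, 0.53 and 0.46, adjusted p = 1.74e-05 and 0.000419 by limma), Usp26 (a deubiquitinase gene, 0.29 and 0.32, adjusted p = 0.00671 and 0.00157) and Hs6st2 (a heparan sulfate sulfotransferase, 0.18 and 0.23, adjusted p = 0.0382 and 0.0345). The list's median change was 0.22 and 0.19, against 0.02 and 0.0019 over all genes. In METTL3 the gene called was Usp26 (-0.94, adjusted p = 0.00515 by limma), which ranged from 0.0291 to 647 CPM over all libraries. The median was 0.17 against 0.23 over all genes there, -0.17 against -0.0019 in ZFC3H1, and 0.24 against 0.06 in D395A XX.

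With dTAG alone, Rap2c (a small GTPase, 0.68, adjusted p = 0.0123 by limma) and Hs6st2 (0.80, adjusted p = 0.01004) rose and Usp26 fell (-1.37, adjusted p = 0.000147) in METTL3, and Mbnl3 and Usp26 rose in both YTHDC1 experiments (0.21 to 0.41), next to 23.3% of all genes called in METTL3 and 19% and 17.8% in YTHDC1. In ZCCHC8 with dTAG + Dox, as a description, Igsf1 (-0.51), 2610018G03Rik (-0.44), Rap2c (-0.43), Mbnl3 (-0.49) and Usp26 (-0.30) were lower, and Hs6st2 was 0.48 higher. With Dox alone 5 of 6 fell in each YTHDC1 experiment, 4 in ZFC3H1 and 2 in METTL3. Over all tested X genes 79.7% and 77.6% fell in the YTHDC1 experiments, 22.95% in ZFC3H1 and 11.5% in METTL3, so the YTHDC1 counts are near those of the X as a whole. The median change of the 6 was -0.78 and -0.64 in the YTHDC1 experiments, -0.71 in ZFC3H1 and -0.54 in METTL3, against -0.54, -0.51, -0.40 and -0.41 over all tested X genes. In YTHDC1 experiment 1 these falls were -0.62 (Usp26) to -0.93 (Hs6st2) on the log2 scale.

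Genes whose products work with Firre RNA or its locus were looked at as a list of 9, all tested. With dTAG + Dox against Dox, 1 was called lower in METTL3 and in D395A XX, 1 higher and 1 lower in YTHDC1 experiment 1, 0 in experiment 2 and 1 higher in ZFC3H1. Set against the shares over all genes given for the neighbors, counts of 0 to 2 of 9 are near the background. Smc1a, an X-linked cohesin subunit, fell by 0.68 in METTL3 and by 0.48 in D395A XX on the log2 scale (adjusted p = 0.00533 and 0.0298 by limma). Hnrnpu, whose protein holds Firre RNA in the nucleus, rose by 0.55 in ZFC3H1 (adjusted p = 0.0111 by limma). In YTHDC1 experiment 1, Stag2 (cohesin, 0.23) was higher and Yy1 (a transcription factor, -0.23) lower. With dTAG alone 3 were lower in METTL3 (Smc1a, Rad21 and Ezh2), 2 in YTHDC1 experiment 1 (Yy1 and the Dxz4 gene 4933407K13Rik) and 0 in the other tested lines. Over all genes 23.3% were called in METTL3 and 19% in YTHDC1 experiment 1. The 2 of 9 are thus near that share, and 3 of 9 rests on few genes. The list's median was -0.09 in METTL3 with Dox, against 0.23 over all genes, and -0.04 and -0.06 in the YTHDC1 experiments. In ZCCHC8 with dTAG + Dox, as a description, 1 was higher and 5 were lower, with Smc1a at -0.65, where 40.4% of all genes were called. Of 5 genes at loci described as contacted by Firre, 4 were tested, and outside ZCCHC8 Eef1a1 was the one called with dTAG (0.18 in YTHDC1 experiment 1 with Dox, 0.79 in METTL3 without). In ZCCHC8, as a description, Eef1a1 (0.21 with Dox, -0.19 without) and Ppp1r10 (0.68 and 0.65) were past the threshold, as were 40.4% and 36.1% of all genes.

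Among 6 X-linked noncoding genes, Firre included, Xist and Jpx rose without Dox in YTHDC1 while Tsix in METTL3 and 4933407K13Rik in YTHDC1 experiment 1 fell with Firre. Besides Firre with dTAG + Dox there were calls for Ftx (higher by 0.22 and 0.24 in the YTHDC1 experiments) and Xist (-0.26 in YTHDC1 experiment 2, adjusted p = 0.0427 by limma). Xist was not called in METTL3 or the D395A lines in the reported fits, yet its mean level rose there. It went from 2817 to 5102 CPM in METTL3, 4257 to 6712 in D395A XX and 2484 to 5101 in D395A XiO. Mean Xist was 4005 and 4127 CPM in WT XX, and it fell in both YTHDC1 experiments, ZFC3H1 and WT XiO. With dTAG alone Xist rose by 1.00 and 1.20 in the YTHDC1 experiments and by 1.29 in ZFC3H1 (adjusted p = 5.12e-06, 6.13e-09 and 0.00736 by limma). Jpx, an activator of Xist, rose by 0.50 and 0.43 in YTHDC1, Ftx by 0.18 in experiment 1, 4933407K13Rik fell by 0.33 there, and Tsix, the antisense RNA of Xist, fell by 0.72 in METTL3. Firre was lower without Dox in these cells while Xist was higher, at mean levels of 110 to 214 CPM that are far below those with Dox, and the part of Xist in the Firre values was not tested. With Dox alone Xist was the gene called higher, and 5 of 6, Firre among them, were called lower in both YTHDC1 experiments, 3 in ZFC3H1 and WT XiO and 1 in METTL3. Over all tested X genes 79.7% and 77.6% fell in the YTHDC1 experiments, 22.95% in ZFC3H1, 33.4% in WT XiO and 11.5% in METTL3. The YTHDC1 and METTL3 counts are thus near those of the X as a whole, and 3 of 6 rests on few genes. In ZCCHC8, as a description, 3 were higher and 2 lower with dTAG both with and without Dox, where 40.4% and 36.1% of all genes were called.

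The FERM family gave no common direction with Frmd7. All 18 listed genes were tested, and with dTAG + Dox 2 were higher and 2 lower in YTHDC1 experiment 1, 2 higher and 1 lower in experiment 2, 1 higher in D395A XX, and 0 called in METTL3 and ZFC3H1. The 4 and 3 of 18 called in YTHDC1 are close to the 15.5% and 14.7% called over all genes. In YTHDC1, Frmd4b (a scaffold gene, 0.45 and 0.58, adjusted p = 0.00102 and 1.51e-05 by limma) and Msn (moesin, an X-linked linker of membrane and actin, 0.35 and 0.44, adjusted p = 0.00304 and 0.000534) rose, and Farp1 (-0.30 and -0.21) fell. The median change of the list was 0.02 and -0.05, against 0.02 and 0.0019 over all genes. With dTAG alone 1 was higher and 4 lower in METTL3, 2 higher and 3 or 4 lower in YTHDC1, and 1 higher in D395A XX (Frmpd1, 1.04), where 23.3%, 19% and 17.8%, and 6.01% of all genes were called.

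Over the 36 line and treatment means, each line centered on its own mean, the genes most like Firre of 12671 were Rragb (Pearson r = 0.967), Smarca1 (0.964), Pdzd4 (0.961), Gpc3 (0.961) and Klf8 (0.960), all on the X. Gpc3 lies within 2 Mb of the pair. Frmd7 was most like Plcxd2 (r = 0.887, chromosome 16), 2610301B20Rik (0.886, chromosome 4), Dock3 (0.877, chromosome 9), Rab28 (0.874, chromosome 5) and Gspt2 (0.862, X). Firre and Frmd7 had r = 0.444, at rank 1299 among genes ordered by likeness to Firre. These values describe means that share controls and libraries, and carry no test. With Spearman correlation 4 of the 5 genes for Firre and 3 of the 5 for Frmd7 were again among the first 5.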

How the data were processed

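Chromatin-associated RNA of mouse ES cells was sequenced in 80 libraries (stranded, paired reads). The authors discarded reads that matched rRNA (Bowtie2), mapped those left to an N-masked mm10 genome with STAR, kept unique alignments, assigned them to alleles with SNPsplit and counted over whole transcript spans by strand with featureCounts. The deposited expression tables hold CPM, which the authors computed with edgeR from reads per gene in each library. The deposited ratio tables hold the fraction Xi/(Xi + Xa), which the authors listed for X genes with at least 10 variant reads. In the deposited tables the CPM steps gave whole reads for 100% of values, so read counts were recovered for an edgeR test. The deposited gene length column gave the levels per kb.

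Log2(CPM + 1) was fitted with limma 3.58.1 (lmFit, eBayes with trend, R 4.3.3) in each table over genes whose mean reached 1 CPM, with clone as a block in the degron lines, and p-values were adjusted over all genes tested (Benjamini-Hochberg). Ratios were fitted with limma on the fraction. Exact permutation and sign-flip tests used scipy 1.17.1 and Python 3.11.15. Alternatives were pseudocount 0.1, no filter, median-ratio scaling, edgeR 4.0.16, fewer libraries, other blocks, and leaving out each clone. Clones pair by being the same cell line, and the lowest correlation of their deviations was -0.18 (METTL3 clone H5). Degron clones are separate cell lines, while both experiments of a transgene line are the same clone, so p-values there measure the spread between experiments. By the methods of the study the wells of an experiment were split from 1 batch of cells, so experiments pair the transgene libraries within a line (lowest correlation of deviations 0.427 to 0.868). Those lines were fitted without this block, and its values stand beside each call that it changed. No replicate pair was identical (56 pairs). The fits were tested on simulated data. Symbols of 93.8% of genes matched RefSeq.

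The members and lists were chosen with earlier results of these data known. Named were the members, genes within 1 Mb, up to 4 called genes of a list in a comparison, and the 5 genes most like each member. Per-sample columns that could not be tied to a sample (24) were not used. Both YTHDC1 tables have the same column names, and the table marked as the second repeat was taken as experiment 2. Titles give 26 h of dTAG where the treatment text gives 2 h, and the titles were followed.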

Additional observations from a re-analysis of the deposited data

Results flagged for a closer look

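Firre in METTL3 clone C3 with dTAG + Dox stood at 573.4 CPM, far from the other clones at 335.2 to 364.1 CPM. The allelic share of Frmd7 in METTL3 clone H5 with dTAG was 99.48%. The other 3 clones lie at the limit of 100%, where any departure meets the rule that compares a gap with the range of its group, so this value shows no more than a ratio just under its limit. Of 15 groups of 4 libraries looked at, these 2 met that rule, and chance gives this in about 1 in 20 groups.

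The Dox change of Firre differed by 0.5623 on the log2 scale between clones with inducible Xist on Cast and on 129S (exact permutation p = 0.004762), and that of Frmd7 by -0.8406 (exact permutation p = 0.01429). Both comparisons include the ZCCHC8 clones. The dTAG change of Frmd7 differed between YTHDC1 experiment 1 and ZCCHC8 by 2.244 with Dox (1.001 and -1.244) and by 2.187 without Dox (1.182 and -1.005), with both clones of each line on the same side of 0. This difference was not tested, because the ZCCHC8 values chose the genes.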

How the results depend on the processing

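Of 672 alternative values over 126 results, 570 kept their direction and side of the threshold, 43 lost their call, 25 gained one, 12 values without a test moved beyond their spread and 22 reversed their sign. None of the 22 was called in the reported analysis, nor in the alternative where it gave a test. The cause of a changed call was not tested, except that fits to fewer libraries or without a block have fewer samples or more spread. Adjusted p is by limma unless edgeR is named.

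With edgeR on recovered reads the Dox change of Firre was -0.65 in D395A XX (adjusted p = 0.0499), -0.46 in METTL3 (0.144), -0.47 in ZFC3H1 (0.0503) and -1.07 in ZCCHC8, its dTAG + Dox change -0.16 in YTHDC1 experiment 1 (0.0345) and -0.39 in ZFC3H1 (0.0545), and Frmd7 changed by 0.38 with dTAG in METTL3 (0.231) and in ZCCHC8 by -0.50 with Dox and -1.71 with dTAG + Dox. With median-ratio scaling the Dox change of Firre was -0.67 in D395A XX (0.0416), -0.48 in METTL3 (0.154) and -1.08 in ZCCHC8, its dTAG + Dox change -0.16 in YTHDC1 experiment 1 (0.03995) and -1.68 in ZCCHC8, and its ZCCHC8 value -0.62 with dTAG and -1.05 for the difference with and without Dox. Frmd7 was then 0.30 with dTAG in METTL3 (0.323), and -1.31 with dTAG + Dox and -0.27 for that difference in ZCCHC8. With pseudocount 0.1, Frmd7 in ZCCHC8 was -0.48 with Dox and -1.62 with dTAG + Dox.

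Without the filter, Firre was -0.49 in METTL3 with Dox (0.0594), -0.47 in ZFC3H1 with Dox (0.121) and -0.39 with dTAG + Dox (0.0963), and Frmd7 0.55 in METTL3 with dTAG (0.05495) and -1.26 in ZFC3H1 with Dox (0.0717). With only the groups compared, Firre was -0.49 (0.377) with Dox and -0.50 (0.0860) with dTAG + Dox in METTL3, -2.57 with Dox in WT XiO (0.392), -0.13 (2.7e-05) and -0.15 (0.0202) with dTAG + Dox in the YTHDC1 experiments, and -0.37 with dTAG in ZFC3H1 (0.0102). Frmd7 was then -1.12 with Dox (0.369) and 0.55 with dTAG (0.0537) in METTL3, and the Firre ratio -27.9 points with Dox in ZFC3H1 (0.0549). On the log odds scale the METTL3 Firre ratio with dTAG + Dox was -0.42 (0.000795). In dTAG libraries the Cast share differed by -7.20 points with ZCCHC8, as a description, and by -4.78 without it (exact p = 0.143), an alternative chosen after seeing the data. Of neighbors within 2 Mb, 26.7% were called in METTL3 with dTAG + Dox.

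Without the clone block, Firre was -0.49 with Dox (0.9998), -0.50 with dTAG + Dox (0.238) and -0.50 with dTAG (0.170) in METTL3, -0.30 with dTAG in YTHDC1 experiment 1 (0.0562), -1.02 with Dox (0.0873) and -0.35 with dTAG (0.548) in experiment 2, and -0.47 with Dox and -0.39 with dTAG + Dox in ZFC3H1. Frmd7 was 0.55 with dTAG in METTL3 (0.0810), 0.96 with dTAG + Dox (0.109) and 1.005 with dTAG (0.0854) in YTHDC1 experiment 2, and -1.26 with Dox in ZFC3H1. In the transgene lines the libraries pair by experiment. With experiment as a replicate block, Firre was called at -0.62 with Dox in D395A XX (0.000687), -0.72 in WT XX (0.000514) and -1.85 in D395A XiO (2.6e-05), and in D395A XiO at -1.08 with dTAG + Dox (0.000866) and -0.55 with dTAG (0.0285). The D395A minus WT difference for Firre was then called at -0.80 (0.00184) and -0.69 (0.00378) in XX, and at -1.19 (0.0130) with Dox in XiO. Frmd7 with this block was called at -1.73 (1.3e-05), 0.49 (0.0433) and 0.97 (0.000426) with Dox, dTAG + Dox and dTAG in D395A XX, 1.32 with dTAG in D395A XiO (0.00108), -1.12 (0.00142) and -0.80 (0.0416) with Dox in WT XX and WT XiO, and 1.00 (0.0112) and 1.28 (0.0226) for D395A minus WT without Dox in XX and XiO. The replicate block changed no other call of the pair, allelic ratios included.

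With median-ratio scaling the difference with and without Dox for Firre in WT XX was -0.0028 (0.02 as reported), and with edgeR Frmd7 in WT XiO was -0.16 with dTAG + Dox and -0.0182 with dTAG (0.13 and 0.04 as reported). The other reversals came from leaving out 1 clone or experiment. That put Firre at -0.13 to 0.0861 with dTAG + Dox and -0.146 to 0.0541 with dTAG in WT XX, and at -0.0595 to 0.287 and -0.0161 to 0.111 in WT XiO. It put Frmd7 at -0.44 to 0.15 and -0.124 to 0.0646 in WT XX, at -0.40 to 0.66 and -0.0992 to 0.183 in WT XiO, and at -0.29 to 0.0630 with dTAG in ZFC3H1. The Firre ratio with dTAG ranged over -1.04 to 0.339 points in WT XX, -0.0816 to 0.0432 and -0.589 to 0.453 in the YTHDC1 experiments and -4.67 to 1.07 in ZFC3H1, where it was -2.145 to 1.82 with dTAG + Dox. The Frmd7 ratio ranged over -3.33 to 0.295 with Dox and -0.366 to 0.0640 with dTAG in D395A XX, -0.646 to 0.2165 with Dox in METTL3 (above 0 without G4 or C3), and -0.935 to 3.22 with dTAG + Dox in WT XX.

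Leaving out each METTL3 clone put the Dox change of Firre at -0.55 to -0.44 (no call), its dTAG + Dox change at -0.55 to -0.43 (no call without G4 or H5), the Dox change of Frmd7 at -1.30 to -0.96 (a call without C3 alone) and its dTAG change at 0.44 to 0.64 (no call). For Firre with dTAG in YTHDC1 experiment 1 it gave -0.32 to -0.29 (no call without Y9F). In ZFC3H1, YTHDC1 experiment 2 and the transgene lines it leaves values with no test. Frmd7, with 23 to 997 reads a library, is the less precise of the pair.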
